A study of Homo sapiens with 12 samples.

Results

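The SR proteins SRSF1, SRSF2, SRSF3, SRSF4, SRSF5, SRSF6, SRSF7 and SRSF11, the related splicing activator TRA2B and the nuclear speckle protein NSRP1 were followed through total RNA and ribosome-protected fragments (RF) of PANC-1 cells. These 10 genes were found by gene name among the 20212 genes in the deposited table of counts, and all 10 had enough reads to be among the 13329 genes tested. They were chosen on the total RNA change: SRSF7 and NSRP1 had moved there, and the other members were taken as relatives of SRSF7. Their total RNA difference between rapamycin and DMSO, their isoform values and their change in translational efficiency (TE, RF relative to total RNA, which holds the same total RNA) are therefore given as descriptions with no test. The RF difference and the level of RF relative to total RNA within a treatment were not what the choice was made on and were tested. The level shares its total RNA libraries with the choice, in which the members differed by 0.30 or less on the log2 scale, so its calls are not fully independent of it.

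PANC-1 is an established human line from a carcinoma of the pancreatic duct, for which the labels name no transgene or edited gene. The DMSO group was 3 cultures that received the solvent, and the rapamycin group was 3 cultures that received 50 nM rapamycin, an inhibitor of the mTORC1 kinase complex, for 60 min. Each culture was taken to give 1 RF library, in which nuclease leaves only mRNA covered by ribosomes, and 1 total RNA library, 12 libraries in all. RF and total RNA libraries with the same treatment and number in their titles were treated as 1 culture, which the labels imply but do not state. Because the cultures belong to 1 line and the labels do not say that they were grown apart, p-values measure the spread between these cultures only.

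SR proteins bind exons through RNA recognition motifs and recruit the splicing machinery through a domain rich in arginine and serine, which SRPK kinases phosphorylate in the cytoplasm and CLK kinases in the nucleus. Genes of this family are known for highly conserved poison exons: when such an exon, or a part of an intron, is kept, the reading frame meets an early stop codon and the RNA is a substrate for nonsense-mediated decay (NMD). RNA of this kind is counted in total RNA over all exons but gives little full-length protein.

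The early stops themselves are shown for 5 members, since RNA that carries them is a large share of the total RNA of several members. Each line gives the last 30 bases of the reading frame of the member's most abundant isoform annotated for NMD, 5′ to 3′ on the strand of the gene, with the stop codon in capitals. Sequences and annotation are of GRCh37 (GENCODE release 44 lifted to that build).
SRSF3-203: accatcatgtctcttctcaccaccctcTGA
SRSF4-205: ggagaggttcggttcttacaaggaaaaTGA
SRSF6-202: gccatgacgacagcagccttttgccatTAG
SRSF7-208: cggcgaagaagaagcaggtatttatttTAA
TRA2B-205: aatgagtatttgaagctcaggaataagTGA

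The SRSF3 stop lay at chr6:36567602-36567631 in an exon of 456 bases, the SRSF4 stop at chr1:29492521-29492550 in an exon of 175 bases, the SRSF6 stop at chr20:42087915-42087944 in an exon of 268 bases, and the TRA2B stop at chr3:185649560-185649589 in an exon of 276 bases. None of these 4 exons overlapped an exon of the member's most abundant coding isoform. The SRSF7 stop lay at chr2:38976658-38976687 in an exon of 1127 bases that runs into sequence which is intronic in the main coding isoform. Between the stop and the last exon junction there were 548 bases in SRSF3-203, 603 in SRSF4-205, 534 in SRSF6-202, 1138 in SRSF7-208 and 1015 in TRA2B-205. The reading frame was short in TRA2B-205, with 117 bases including the stop, against 399 in SRSF7-208.

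RF libraries held between 278835 and 1574723 counted reads and total RNA libraries between 78081241 and 94293744, so RF values carry much more counting error. DMSO replicate 1 and rapamycin replicate 3 were the shallow RF libraries. The spread between cultures, as edgeR's biological coefficient of variation, was 54.9% in RF and 5.31% in total RNA. Total RNA of rapamycin replicate 2 stood apart: of 9454 genes with a mean of at least 10 CPM (read counts as a rate of the library's total, CPM, scaled by TMM within the library type), 33.2% had their lowest value in it, against 11.8% to 14.3% in the other 5 libraries. DMSO total RNA libraries 1 and 2 listed fewer genes than the other 4, with 16840 and 16858 against 19751 to 19847. As markers of the line, KRT8, KRT18, KRT19 and SOX9 were between 83.0 and 3654 CPM in total RNA, while KRT7 and EPCAM, also ductal epithelial markers, were at most 8.33 CPM. PTPRC, INS, PRSS1 and ALB, which mark leukocytes, beta cells, acinar cells and hepatocytes, were at most 0.626 CPM, and COL1A1, of fibroblasts, was at most 5.47 CPM.

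In total RNA, NSRP1 and SRSF7 were lower in every rapamycin culture than in every DMSO culture, which is the difference that chose the group. NSRP1 (ENSG00000126653, chr17:28442539-28513493), a speckle protein that takes part in splice-site choice, had 22.5, 20.2 and 20.8 CPM in DMSO replicates 1, 2 and 3 and 17.6, 16.5 and 17.2 CPM in the rapamycin replicates. Its log2 difference was -0.30 ± 0.05 (SE, n = 3 per treatment), at percentile 0.225 of all genes tested. SRSF7 (ENSG00000115875, chr2:38970741-38978636), which acts in splicing and as an adaptor for mRNA export, had 293, 288 and 292 CPM in DMSO and 268, 251 and 267 CPM in rapamycin. Its log2 difference was -0.15 ± 0.03, at percentile 1.36. In both genes the gap to DMSO was widest for rapamycin replicate 2, which in SRSF7 lay well below the other rapamycin cultures (SD 9.61 CPM in rapamycin, 2.47 CPM in DMSO). In bulk samples such as these, fewer cells that carry an RNA and less of it per cell cannot be told apart.

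Without rapamycin replicate 2, the log2 ratio of the mean CPM was -0.28 for NSRP1 and -0.12 for SRSF7. In the deposited FPKM table (fragments scaled by transcript length and library size, made by the authors), NSRP1 was less separated. Its gene FPKM was 11.7, 10.1 and 11.0 in DMSO and 10.1, 9.83 and 9.23 in rapamycin, and its difference on the log2(FPKM + 1) scale was -0.15. SRSF7 gave -0.15 on that scale too, with 172, 167 and 166 FPKM in DMSO and 156, 144 and 155 FPKM in rapamycin.

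The other members differed by less in total RNA. SRSF1, the prototype of the family, had 496, 482 and 482 CPM in DMSO and 471, 428 and 479 CPM in rapamycin. SRSF5, another SR protein that promotes exon inclusion, had 135, 143 and 135 CPM in DMSO and 133, 115 and 136 CPM in rapamycin. In both genes rapamycin replicate 2 was far below the other rapamycin cultures, which lay next to DMSO. SRSF4 had 88.7, 86.7 and 86.8 CPM in DMSO and 83.4, 83.7 and 86.1 CPM in rapamycin. Over the 6 libraries SRSF3 ranged from 359 to 395 CPM, SRSF2 from 247 to 267 CPM and SRSF6 from 209 to 229.6 CPM, with overlapping groups. For SRSF1, SRSF4 and TRA2B, every rapamycin culture was also below every DMSO culture, so that 5 of the 10 members showed this order, against 6.61% of all genes tested; these are the values that chose the group, and nothing is read from the count. TRA2B, which activates exons rich in purines, had 354, 356 and 354 CPM in DMSO and 350, 347 and 350 CPM in rapamycin, a log2 difference of -0.03 ± 0.03. SRSF1 gave -0.08 ± 0.04 and SRSF5 gave -0.10 ± 0.06, and both came to -0.03 without rapamycin replicate 2 (log2 ratio of mean CPM). Over all 10 members the median log2 difference was -0.06, beside 0.01 over all genes tested. Rapamycin replicate 2 held the lowest value of 8 of the 10 members. SRSF11 was the exception, with its highest value there (179 CPM, against 156 to 163 CPM in the other 5 libraries), and its log2 difference of 0.04 became -0.02 without that library. How far this library bears on the smaller differences was not tested.

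**Figure D1:**
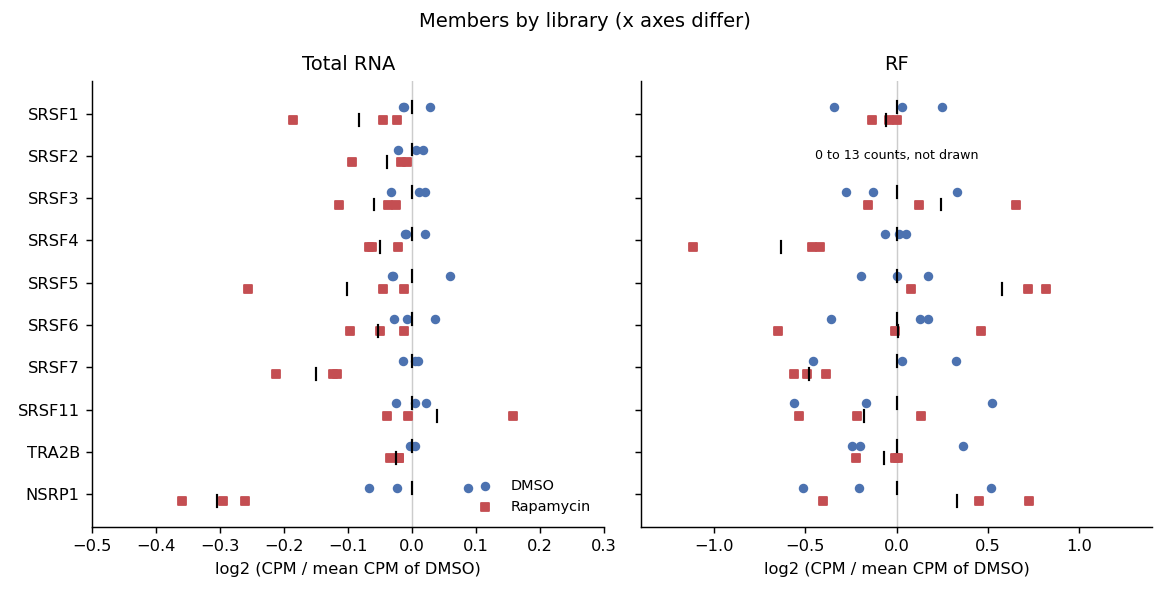
Each point is 1 library, as the log2 ratio of its CPM to the mean CPM of the DMSO libraries, with total RNA on the left and RF on the right (x axes differ, and RF of SRSF2 is not drawn) and short bars at the group means. All rapamycin points lie below all DMSO points in 5 members in total RNA (SRSF1, SRSF4, SRSF7, TRA2B and NSRP1) and in 1 in RF (SRSF4).

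Isoform values of total RNA came from the authors' isoform FPKM, of which 182638 of 214292 transcripts matched the annotation used here, and each transcript was placed in its annotated class. Much of the RNA of most members was not annotated as coding. In DMSO, isoforms of the NMD and retained-intron classes made up 78.5% ± 2.58 (SD, n = 3) of the isoform FPKM of TRA2B, 52.1% ± 0.723 of SRSF3 and 46.9% ± 1.77 of SRSF6. The share was 39.4% ± 4.13 for SRSF2, 36.97% ± 2.48 for SRSF7 and 36.5% ± 2.36 for SRSF5. It was lowest in SRSF1 with 20.7% ± 2.15, SRSF11 with 16.5% ± 1.34, NSRP1 with 16.2% ± 4.86 and SRSF4 with 14.5% ± 2.16. The shares of SRSF2, SRSF7 and SRSF5 lay within each other's spread, as did those of SRSF11, NSRP1 and SRSF4. Shares are of matched isoforms only. These held 91.1% of the gene FPKM of SRSF11, 92.2% of that of SRSF4 and 96.9% of that of SRSF5, and nearly all of it in the other members. The class of the unmatched rest is not known here. The median over 10292 genes was 5.71%, and all 10 members lay above it.

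The kind of noncoding RNA differed between the members. SRSF6 had no annotated retained-intron isoform, and its share was the poison-exon isoform SRSF6-202 at 36.3, 32.0 and 32.0 FPKM in DMSO, beside 37.9, 38.4 and 37.1 FPKM of its most abundant coding isoform. SRSF3-203, whose stop is shown above, reached 48.0, 42.3 and 41.3 FPKM in DMSO. In TRA2B the retained-intron class came to 58.7% and the NMD class to 19.8%, and its most abundant isoform was the poison-exon TRA2B-205 with 25.6, 29.2 and 28.5 FPKM. SRSF5 carried mainly retained introns (33.9%, with 2.59% NMD), and SRSF7 mainly NMD isoforms (28.2%, with 8.82% retained introns). In SRSF4, the shown poison-exon isoform was scarce, at 0.958, 0.898 and 0.804 FPKM in DMSO. SRSF11 had a further 42.2% in isoforms annotated outside the coding, NMD and retained-intron classes.

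These shares overlapped between rapamycin and DMSO in all 10 members, where 7.35% of 10292 genes did not overlap. The difference of the mean shares ran from -4.15 percentage points for NSRP1 to 0.686 for SRSF11. With 1 culture left out, it was -7.97 (without rapamycin replicate 3) to -0.86 (without rapamycin replicate 1) for NSRP1, and -0.081 (without DMSO replicate 1) to 1.14 (without DMSO replicate 3) for SRSF11. For SRSF7 it was -0.478 points, and its coding and noncoding isoforms were lower side by side. Coding SRSF7 RNA had 113, 104 and 101.3 FPKM in DMSO and 100.6, 90.2 and 98.9 FPKM in rapamycin. Its NMD and retained-intron RNA had 58.9, 62.6 and 65.1 FPKM in DMSO and 55.4, 54.3 and 56.5 FPKM in rapamycin. For SRSF3 the poison-exon isoform was lower in every rapamycin culture, at 39.5, 32.5 and 41.25 FPKM, than in DMSO, where the lowest culture had 41.29 FPKM. The NMD isoform NSRP1-204 was listed at 1.64, 0.792 and 1.44 FPKM in DMSO and at 0, 0.294 and 0.0189 FPKM in rapamycin, levels near the 0.5 FPKM under which isoforms were set aside in an alternative. Such an order was not particular to NMD isoforms. The most abundant coding isoforms of SRSF5, SRSF7 and NSRP1 and the retained-intron SRSF7-211 were also lower in every rapamycin culture. The retained-intron SRSF11-214 was higher in every rapamycin culture. The share of all isoforms with such an order was not computed, and these isoforms are from the total RNA that chose the group. Nothing is read from these orders.

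**Figure D2:**
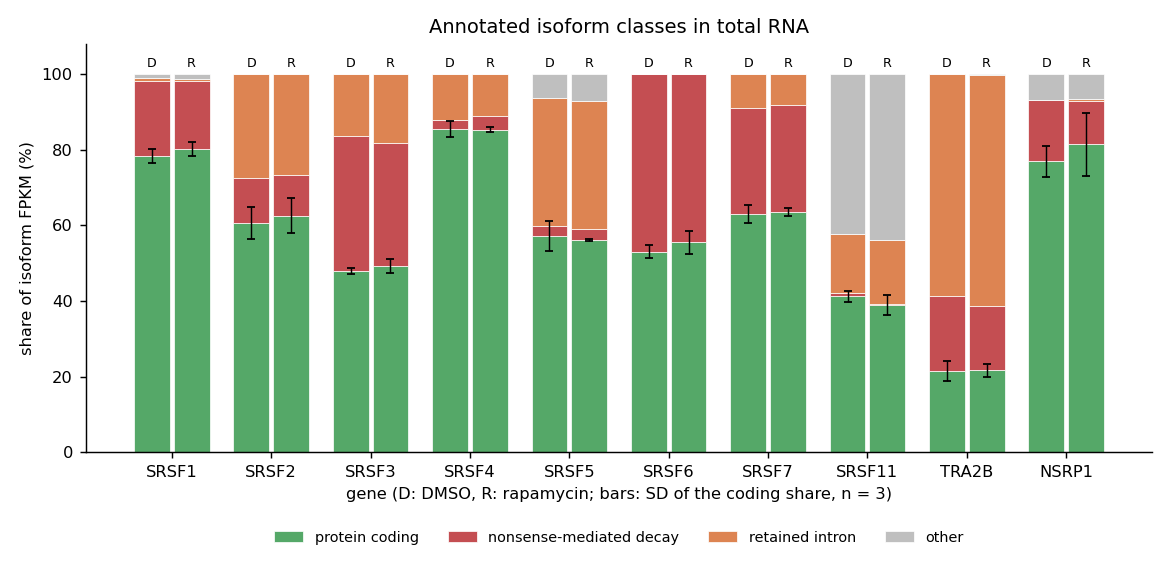
Stacked bars give the mean share of each annotated isoform class in the isoform FPKM of each member's total RNA, for DMSO (D) and rapamycin (R), with the SD of the coding share over 3 libraries. Neighbouring D and R bars are alike within that spread, while the coding share falls from 85.5% in SRSF4 to 21.4% in TRA2B.

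In RF, no member passed the test between rapamycin and DMSO. SRSF5 (ENSG00000100650, chr14:70193617-70238722) had 83.1, 107 and 95.1 CPM in DMSO and 167, 100 and 156 CPM in rapamycin, a log2 difference of 0.56 ± 0.32 (SE). SRSF4 (ENSG00000116350, chr1:29474255-29508412) had 83.1, 85.5 and 78.8 CPM in DMSO and 38.1, 61.7 and 59.9 CPM in rapamycin, a log2 difference of -0.65 ± 0.38. The SRSF5 groups overlapped through rapamycin replicate 2, and the SRSF4 groups did not overlap, with close DMSO cultures and rapamycin replicate 1 well below the other rapamycin cultures. SRSF7 had 261, 152 and 213 CPM in DMSO and 142, 149 and 160 CPM in rapamycin. Its log2 difference was -0.47 ± 0.27, and the groups overlapped because DMSO replicate 2 was low. Leaving out DMSO replicate 2 moved it to -0.67 and leaving out DMSO replicate 1 to -0.29. NSRP1, which rested on 5 to 30 RF reads per library, had 15.4, 31.4 and 19.0 CPM in DMSO and 16.6, 36.3 and 29.9 CPM in rapamycin, a log2 difference of 0.29 ± 0.63, which was 0.017 without rapamycin replicate 2 and 0.61 without DMSO replicate 2.

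The remaining members had overlapping groups and lay closer together. RF of SRSF3 ranged from 161 to 245 CPM in DMSO and from 175 to 306 CPM in rapamycin, and RF of SRSF1 from 126 to 189.8 CPM and from 145 to 159.7 CPM. TRA2B had 102 to 155 CPM in DMSO and 103 to 121 CPM in rapamycin, SRSF6 92.3 to 133 CPM and 75.4 to 163 CPM, and SRSF11 52.3 to 111 CPM and 53.2 to 84.7 CPM. SRSF3 gave 0.23 ± 0.28, SRSF2 0.13 ± 1.26, SRSF6 -0.03 ± 0.34, SRSF1 -0.06 ± 0.28, TRA2B -0.08 ± 0.31 and SRSF11 -0.18 ± 0.39 (log2 RF difference with SE, n = 3). In edgeR's quasi-likelihood test, adjusted by Benjamini and Hochberg's method over all genes tested, 0 of the 10 members and 0% of all genes passed 0.05, and the smallest adjusted p among the members was 0.9999. Unadjusted, 0 members and 3.68% of all genes were under 0.05, and DESeq2's Wald test also called 0 of the 10. One order was complete, that of SRSF4, as 1 of 10 members with every rapamycin value below DMSO (4.21% of all genes) and 0 of 10 above (5.24%). The median over the members was -0.04, beside 0.02 over all genes. With these standard errors, a change in RF as small as that seen in total RNA was not detectable at this depth for any member.

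TE, as log2 of RF CPM over total RNA CPM in the same culture with a prior count of 2, separated the treatments in SRSF4 and SRSF5. For SRSF4 it was -0.05, 0.02 and -0.10 in DMSO and -1.04, -0.38 and -0.47 in rapamycin. For SRSF5 it was -0.66, -0.39 and -0.47 in DMSO and 0.35, -0.16 and 0.22 in rapamycin. SRSF4, known as a large SR protein with a long arginine-serine domain, was lower and SRSF5 higher in all rapamycin cultures, and the other 8 members overlapped. All of the rapamycin cultures were below all of the DMSO cultures in 6.19% of genes and above them in 4.80%. In the fit over all libraries the log2 change in TE was -0.62 ± 0.30 for SRSF4 and 0.65 ± 0.28 for SRSF5. It was -0.31 ± 0.24 for SRSF7 and 0.49 ± 0.39 for NSRP1, and it lay between -0.22 and 0.33 for the other 6 members. The NSRP1 value rests on few RF reads: it was 0.06 when rapamycin replicate 2 was left out and 0.94 when rapamycin replicate 1 was. The SRSF7 value was -0.50 without DMSO replicate 2 and -0.16 without DMSO replicate 1, and the SRSF2 value was -0.99 without rapamycin replicate 1 and 0.84 without DMSO replicate 2. The members' median was -0.01, beside -0.06 over all genes. This fit holds RF and total RNA of a gene to 1 estimate of the spread. The common biological coefficient of variation was 24.4%, beside 54.9% in RF alone. Its SE were below those of the RF difference in every member, although TE also carries the error of total RNA. The SE of TE may therefore be too small.

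**Figure D3:**
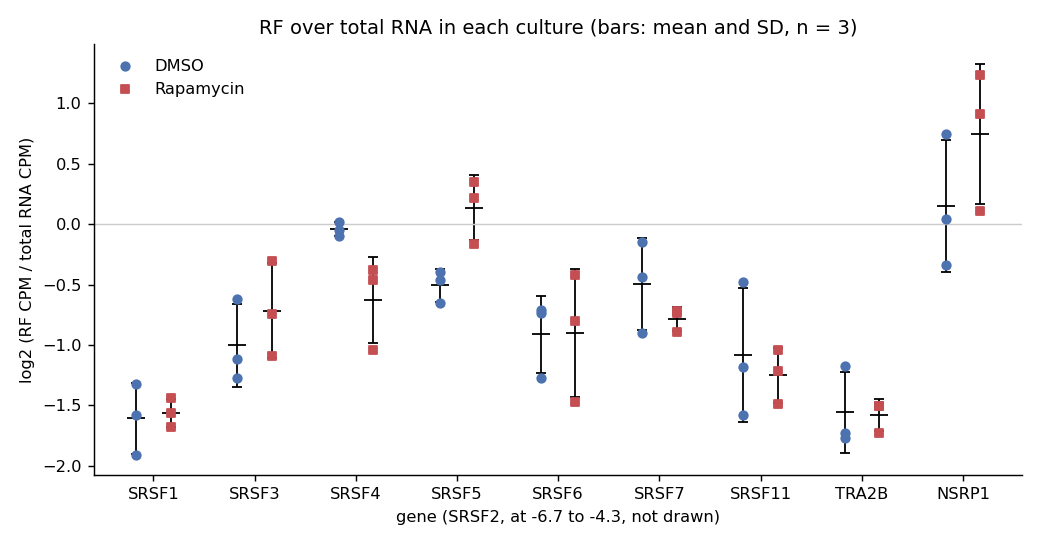
Points are the 6 cultures, as log2 of RF CPM over total RNA CPM, with the mean and SD of each treatment (n = 3); SRSF2 is off the scale. SRSF4 lies lower and SRSF5 higher in rapamycin with no overlap, and the other genes drawn overlap, with a wide spread in NSRP1 in both treatments.

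Within a treatment, most members had fewer RF than their total RNA would give at the library scale. In DMSO, 7 of the 10 members were lower in RF than in total RNA by edgeR's quasi-likelihood test at an adjusted p of 0.05, as were 37.3% of all genes tested, and 0 were higher. SRSF1 gave a log2 level of -1.66 ± 0.17 (SE, adjusted p = 0.000321), TRA2B -1.57 ± 0.19 (adjusted p = 0.000653), SRSF11 -1.07 ± 0.26 (adjusted p = 0.0120), SRSF3 -1.02 ± 0.17 (adjusted p = 0.00295), SRSF6 -0.93 ± 0.17 (adjusted p = 0.00366) and SRSF5 -0.56 ± 0.17 (adjusted p = 0.0249). SRSF2 was far below the rest at -5.66 ± 0.39. SRSF7 was at -0.54 ± 0.19 (adjusted p = 0.0510), and SRSF4 at -0.13 ± 0.17 and NSRP1 at 0.04 ± 0.25 were close to 0. The test is against 0, while the median over all genes was -0.63, so a call does not set a member below the typical gene. SRSF5 and SRSF7 sat near the typical gene, at percentiles 51.8 and 52.6, and SRSF1 and TRA2B at percentiles 21.6 and 23.8. SRSF11, SRSF3 and SRSF6 were at percentiles 37.5, 38.8 and 41.1, and SRSF4 and NSRP1 at 63.0 and 66.4. The members' median was -0.98. These tests too hold RF and total RNA of a gene to 1 spread. Its common biological coefficient of variation was 35.0% in DMSO and 16.1% in rapamycin. Their SE and p-values do not allow separately for the wider spread of RF.

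In rapamycin, 8 of the 10 members were lower in RF (43.0% of all genes tested) and 0 were higher, with a median of -0.85 beside -0.55 over all genes. SRSF1 at -1.55 ± 0.12 and TRA2B at -1.55 ± 0.13 were again the lowest after SRSF2, SRSF7 gave -0.78 ± 0.13 (adjusted p = 0.000749 by edgeR's quasi-likelihood test) and SRSF4 -0.69 ± 0.21 (adjusted p = 0.0193). SRSF5 at 0.17 ± 0.21 and NSRP1 at 0.61 ± 0.28 (adjusted p = 0.0853) did not pass. Calls near the threshold rested on single cultures or on the fit. Without DMSO replicate 1, SRSF3, SRSF5 and SRSF11 did not pass in DMSO (adjusted p = 0.0679, 0.0832 and 0.0976 by the same test), and without DMSO replicate 3, SRSF5 and SRSF11 did not (0.140 and 0.0848). In rapamycin, SRSF3 and SRSF6 did not pass without replicate 2 (adjusted p = 0.0745 and 0.0568 by the same test), and SRSF4 did not without replicate 1 or replicate 3 (0.112 and 0.0748). NSRP1 was higher in RF without rapamycin replicate 1, at 1.12 (adjusted p = 0.00842 by edgeR's quasi-likelihood test), and in DESeq2's Wald test, at 0.60 (adjusted p = 0.00497). NSRP1 and SRSF7 were chosen for total RNA lower in rapamycin than in DMSO. By itself this raises their level in rapamycin and lowers it in DMSO. The p-values of the levels of both genes are therefore not independent of the choice in either treatment. Under that limit, SRSF7 in DMSO passed with DESeq2's size factors (adjusted p = 0.0474) and in its Wald test (adjusted p = 0.00648). With each culture as a replicate block, SRSF5 was lost in DMSO (adjusted p = 0.120 by edgeR's quasi-likelihood test) and SRSF4 in rapamycin (adjusted p = 0.0879).

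RF come mainly from coding sequence and total RNA from whole transcripts, and both were counted over all exons, so the coding part of each gene was set beside its level. The coding part of the main annotated transcript was 11.6% in SRSF3, 13.9% in SRSF1, 20.7% in TRA2B and 23.7% in SRSF6, and it was 64.4% in SRSF4 and 66.8% in NSRP1. After the trend of the level on this coding part was taken out across all genes, the DMSO level of SRSF3 was -0.46 (adjusted p = 0.0571 by edgeR's quasi-likelihood test) and its rapamycin level -0.14 (adjusted p = 0.543). The other members called lower, SRSF1 and TRA2B among them, kept their calls in both treatments. Over the 10 members Spearman's rho of the DMSO level was 0.61 with the coding part and -0.49 with the NMD and retained-intron share. Over 9884 genes rho was 0.08 with the coding part and -0.11 with the share of all isoforms outside the coding class. That share is wider than the NMD and retained-intron share used for the members, so -0.49 and -0.11 are not of the same measure. Genes are not independent replicates, the points share their libraries, and the level and the share are both taken from the same total RNA.

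Levels of different genes are comparable only per length, so RF were also expressed as CPM per kilobase of coding sequence. In DMSO this RF density was highest in SRSF3, the smallest protein of the family, with 363, 327 and 498 CPM per kb, and SRSF7 came next with 366, 213 and 299. SRSF1 had 219, 255 and 169, and TRA2B 121, 118 and 179. SRSF5 had 102, 131 and 117 and SRSF6 had 89.4, 129 and 125. SRSF4 had 56.0, 57.7 and 53.2 and SRSF11 had 36.0, 76.2 and 47.3. NSRP1 had 9.19, 18.8 and 11.4, and SRSF2 had 0, 13.3 and 7.17. Neighbours in this order overlapped from SRSF3 down to SRSF6, as did SRSF4 with SRSF11 and NSRP1 with SRSF2, so that 3 separate steps were left: SRSF3 to SRSF6, SRSF4 with SRSF11, and NSRP1 with SRSF2.

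Dividing by the FPKM of all isoforms, and setting the median of 9884 genes to 0, the log2 density level in DMSO was 1.69 for SRSF3, 0.80 for SRSF7, 0.69 for SRSF6, 0.64 for SRSF4, 0.39 for SRSF5 and 0.26 for NSRP1. It was near 0 for TRA2B (-0.01), SRSF1 (-0.01) and SRSF11 (-0.11). Dividing by the FPKM of the coding isoforms alone leaves the RF density as it is and changes only the divisor. A member with a small coding share must rise on this scale. The shifts therefore restate the isoform shares and hold no further RF result. TRA2B moved to 1.86, SRSF3 to 2.40, SRSF6 to 1.25, SRSF7 to 1.11, SRSF5 to 0.85 and SRSF11 to 0.81, while SRSF1 stayed at -0.01 and NSRP1 was at 0.29. TRA2B thereby went from percentile 49.8 to percentile 90.1 of these genes. In rapamycin, the level against coding isoforms was 1.78 for TRA2B and 2.66 for SRSF3, and SRSF4 went from 0.52 in DMSO to -0.09. These are values without a test, and this scale was chosen after seeing the data.

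**Figure D4:**
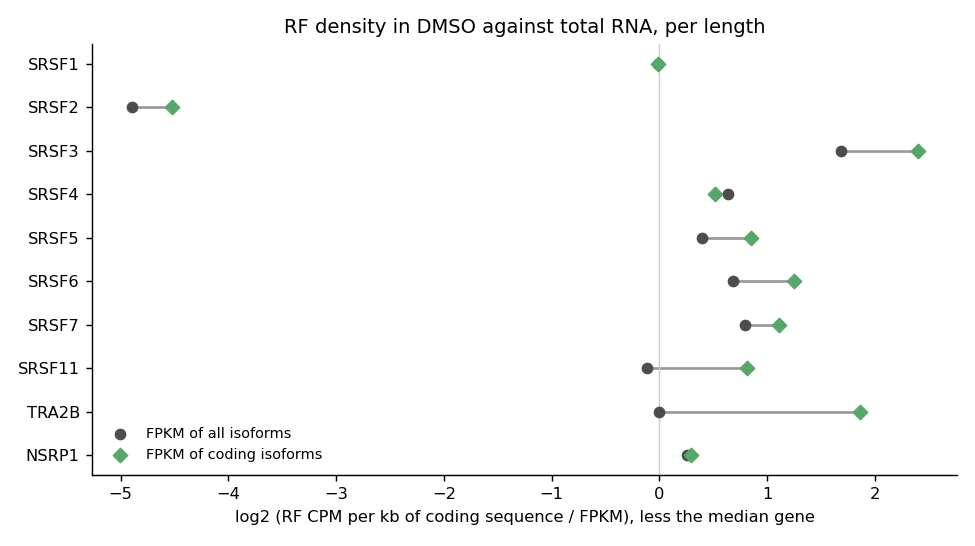
For each member, RF CPM per kb of coding sequence in DMSO is divided by the FPKM of all isoforms (grey circles) or of coding isoforms only (green diamonds), as log2 relative to the median of 9884 genes. TRA2B moves from -0.01 to 1.86 and SRSF1 does not move. The circle and diamond of a member use the same RF density, so the distance between them follows from isoform shares alone.

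SRSF2 (ENSG00000161547, chr17:74730197-74733415), an SR protein that acts in exon recognition, had 259.6, 264.7 and 266.8 CPM of total RNA in DMSO but only 0, 7 and 7 RF reads there and 13, 3 and 0 in rapamycin. The 0 in DMSO replicate 1 allows up to 3 reads, for counting error only. Of the coding bases of SRSF2, 85.7% lie under exons of MFSD11, a gene on the opposite strand, and a read there cannot be given to 1 gene unless the counting used strand, which is not given in the sources used here. MFSD11 had 218, 221 and 174 CPM of RF in DMSO and 248, 190 and 213 CPM in rapamycin, and 146 to 172 CPM of total RNA over the 6 libraries. In 4.25% of 12968 tested genes, at least 50% of the coding bases lie under another counted gene. The part of this overlap in the low RF of SRSF2 was not tested, and SRSF2 is 1 of the 7 members called lower in DMSO and of the 8 in rapamycin. The coding bases of SRSF1 lie wholly under another counted gene, RP11-159D12.5, which had at most 5 reads in a library. That low count does not show that SRSF1 kept all its reads, since a read over both genes may be given to neither. The part of this overlap in the low RF level of SRSF1, called lower in both treatments, was not tested.

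The authors counted only reads with a single place in the genome. Of the 28-base stretches that lie within a single coding exon, 49.4% occurred only there in the genome for SRSF6, 61.8% for SRSF3 and 71.4% for NSRP1. The median gene had 100%. Stretches across exon junctions were not counted. How many RF of these 3 genes were lost in this way was not tested.

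The pathway around the members was followed in 64 further genes, of which 62 were tested. In the RF change, 0 of the 62 passed an adjusted p of 0.05 in edgeR's quasi-likelihood test, while 3 lower and 2 higher were under 0.05 unadjusted and DESeq2 called 0. Over all 13329 genes, 3.68% were under 0.05 unadjusted in the RF change. In the total RNA change, 0 passed, with 7 lower and 2 higher unadjusted (334 and 442 over all genes), and DESeq2 called 0. In the TE change, 0 passed, with 3 lower and 3 higher unadjusted (856 and 823 over all genes). DESeq2's Wald test called 4 lower and 3 higher, beside 606 and 675 over the 13320 genes it tested.

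Among the 10 kinases and import factors of SR proteins, SRPK1, the kinase that phosphorylates SR proteins in the cytoplasm, had the lowest RF difference. Its RF were 61.5, 134 and 109 CPM in DMSO and 62.2, 50.8 and 26.6 CPM in rapamycin, a log2 difference of -1.09 ± 0.42 (adjusted p = 0.9999 in edgeR's quasi-likelihood test). The groups touched, as DMSO replicate 1 was below rapamycin replicate 1. Its total RNA was 164 to 168 CPM in DMSO and 155 to 162 CPM in rapamycin. The log2 change in TE of SRPK1 was -1.005 ± 0.35, with an adjusted p of 0.281 in the quasi-likelihood test and of 1.19e-06 in DESeq2's Wald test. Both fits hold RF and total RNA of a gene to 1 spread, so neither p allows separately for the wider spread of RF. SRPK2, its paralog, gave an RF difference of 0.37 ± 0.58. CLK1, which phosphorylates SR proteins in the nucleus, gave 0.18 ± 0.87 in RF and 0.07 ± 0.04 in total RNA (62.0 ± 2.38 CPM in DMSO and 65.2 ± 2.39 CPM in rapamycin, SD, n = 3). CLK2 was at 31.3, 30.9 and 31.7 CPM in DMSO total RNA and at 28.7, 29.95 and 27.7 CPM in rapamycin, a log2 difference of -0.12 ± 0.04 (adjusted p = 0.766 in edgeR's quasi-likelihood test). In DMSO, 8 of these 10 genes were lower in RF than in total RNA (37.3% of all genes) and 1 was higher (2274 of 13329), with a median of -1.67 beside -0.63 over all genes.

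Of the other SR family genes, SRSF9, SRSF10 and TRA2A were tested, SRSF8 was not matched and SRSF12 had too few reads. SRSF10, a splicing repressor when dephosphorylated, was at 12.4, 11.8 and 13.9 CPM in DMSO total RNA and at 11.6, 10.4 and 11.3 CPM in rapamycin, a log2 difference of -0.19 ± 0.07 (adjusted p = 0.766 in edgeR's quasi-likelihood test). Its RF exceeded its total RNA, with a log2 level of 1.76 ± 0.43 in DMSO (adjusted p = 0.0128 in the same test). SRSF9 gave a total RNA difference of -0.05 ± 0.04. Among 34 SR-related splicing genes, the median total RNA difference was -0.03 and the median RF difference -0.00. DDX23, an RNA helicase of the spliceosome, gave -0.09 ± 0.03 in total RNA, and RSRC2 gave -0.11 ± 0.04 (adjusted p = 0.766 for both in edgeR's quasi-likelihood test). In DMSO, 23 of the 34 were lower in RF than in total RNA (37.3% of all genes) and 1 was higher (2274 of 13329), with a median of -1.34 beside -0.63 over all genes.

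Among 15 genes of NMD and the exon junction complex, UPF1, the helicase at the core of NMD, was at 91.9, 93.9 and 93.6 CPM in DMSO total RNA and at 98.8, 100.1 and 98.6 CPM in rapamycin, a log2 difference of 0.09 ± 0.03 (adjusted p = 0.766 in edgeR's quasi-likelihood test). UPF3B, which links NMD to the exon junction complex, gave -0.17 ± 0.06 in total RNA (adjusted p = 0.766 in the same test). The medians of the list were -0.04 in total RNA and 0.25 in RF, beside 0.01 and 0.02 over all genes. In DMSO, 7 of the 15 were lower in RF than in total RNA and 2 were higher, near the shares over all genes (37.3% lower and 2274 of 13329 higher).

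The genes whose total RNA most resembled that of SRSF7 over the 6 libraries, by Pearson's r of log2 CPM among 9453 genes with a mean of at least 10 CPM, were NUDCD1 (r = 0.995), NDUFB1 (0.991), PSMA5 (0.990), ZNF408 (0.990) and BUD13 (0.989). For NSRP1 they were GLOD4 (0.995), CDC42EP1 (0.991), TOMM70A (0.991), MRPL9 (0.986) and WDR43 (0.979). The points of such a correlation share the treatment, and r reached 0.9 or more for 236 genes with SRSF7 and for 151 with NSRP1, so these names are a description of the nearest profiles. Between members, the median r over the 45 pairs was 0.779, with 36 pairs above 0, and all pairs share rapamycin replicate 2.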

How the data were processed

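Ribosome-protected fragments (RF) and total RNA of PANC-1 cells were compared in 12 libraries of 6 cultures, 3 per treatment. The authors removed linker sequence, short reads and ribosomal RNA from the RF reads, aligned both kinds of library to GRCh37 with HISAT2, and deposited raw read counts per protein-coding gene from uniquely aligned reads (featureCounts, exons). Versions, the annotation release and the strand setting are not given in the sources used here. The authors also deposited FPKM per gene and isoform of total RNA, and normalized fragment counts per isoform (a signal, not whole reads), from Cufflinks 2.2.1; shares from these normalized counts served only as an alternative. Columns of the count table that hold the authors' own comparison were not used.

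The members and the lists of pathway genes were chosen with earlier results of these data known. Genes with at least 10 reads summed over the RF libraries and over the total RNA libraries were kept (13329). TMM factors were taken within each library type, and edgeR 4.0.16's quasi-likelihood test was fitted to the 6 RF libraries, to the 6 total RNA libraries, to all 12 with a treatment by library type term (TE), and to the 6 libraries of each treatment (RF against total RNA). P-values were adjusted over all genes tested by the Benjamini-Hochberg method at 0.05, and tests are two-sided. Gene and isoform positions came from GRCh37 with GENCODE 44 lifted to it, which is not known to be the release the authors used. The coding part is that of the Ensembl canonical transcript. DESeq2 1.42.0, limma 3.58.1 on log2(FPKM + 1), other filters and scalings, a replicate block and leaving out each culture were alternatives. The fits were tested on simulated data. Named pathway genes were SRPK1, SRPK2, CLK1 and UPF1, and, since none passed in a list, the 2 of each list with the smallest p in total RNA. Intervals and floors of counts cover counting error only, since PCR copies were not marked. Cultures carry numbers shared between the treatments. Deviations from the group means of equally numbered DMSO and rapamycin libraries correlated at -0.08 to -0.04 in RF and at -0.01 to 0.10 in total RNA. For RF and total RNA of the same treatment and number, taken as 1 culture, the values were also only -0.007 to 0.035. These correlations therefore cannot tell whether the numbers pair the treatments, or RF with total RNA, and the main fits used no block. RF and total RNA were paired by the treatment and number in the titles.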

Additional observations from a re-analysis of the deposited data

How the results depend on the processing

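Of the members' values under the alternatives, 99 of 109 for the RF difference, 76 of 89 for the level of RF against total RNA in DMSO and 81 of 89 in rapamycin kept direction and side of the threshold. RF differences of members near 0 changed sign when single cultures were left out, with ranges of -1.08 to 0.79 for SRSF2, -0.22 to 0.087 for SRSF1, -0.31 to 0.21 for SRSF6, -0.37 to 0.16 for SRSF11, -0.20 to 0.14 for TRA2B and -0.018 to 0.42 for SRSF3. With a replicate block SRSF2 gave -0.25. The NSRP1 level in DMSO, 0.04, became -0.00018 with at least 60 reads, -0.018 with a replicate block, -0.13 less the trend on the coding part and -0.23 to 0.32 with a culture left out, the lowest without DMSO replicate 2. SRPK2 in total RNA, at -0.02, became 0.041 without DMSO libraries 1 and 2 (the lone DMSO library was assumed to vary like the rapamycin group), 0.00013 and 0.00014 by limma with a pseudocount of 1 and 0.1, and ran from -0.048 to 0.0019 over the cultures left out. The cause of these changes was not tested.

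Counts over all genes moved more, given as lower and higher. The RF change had 0 and 0 calls, but 1 and 4 by DESeq2's Wald test, 10 and 10 with no filter, 2 and 4 with a replicate block, and 0 to 1 and 0 to 6 with a culture left out. Total RNA had 0 and 0, but 4 and 25 by DESeq2, 1 higher by limma with either pseudocount, and 0 to 6 and 0 to 875 with a culture left out, the most without DMSO replicate 3. TE had 0 and 0, but 606 and 675 by DESeq2, and 0 to 374 and 0 to 70 with a culture left out, again the most without DMSO replicate 3. RF against total RNA in DMSO had 4966 and 2274, but 3294 and 1201 with at least 60 reads, where fewer genes were tested, 3121 and 1370 with a replicate block, and 1825 to 5704 and 835 to 2209 with a culture left out, the fewest without DMSO replicate 1. In rapamycin it had 5729 and 2939, with 1456 higher at 60 reads and 4613 to 5120 and 2252 to 2610 with a culture left out. The isoform share difference of SRSF7 was -2.64 points without DMSO libraries 1 and 2, and that of NSRP1 was -13.2 points with isoforms of at least 0.5 FPKM. RF depth limits NSRP1, with 117 RF reads in all, and SRSF2, with 30.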
